A study of Gallus gallus with 6 samples.

Results

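The BMP and TGF-beta signalling genes described here are 40 of the 10337 genes with deposited values. They were chosen by gene symbol, with earlier results of these data known. They comprise 9 ligands, 9 receptors and co-receptors, 10 modulators that act outside the cell or at its membrane, 9 SMADs and SMAD regulators, and 3 genes of the ID family. RNA was sequenced from 3 facial buds of control and *talpid2* chick embryos at stage HH25, the frontonasal prominence (FNP) and the maxillary prominence (MXP), which form the upper beak, and the mandibular prominence (MNP), which forms the lower beak. *talpid2* is an autosomal recessive mutant with facial clefting and extra digits, linked to the ciliary gene *C2CD3*. Tissue of 8 control and 8 *talpid2* embryos was pooled, which gave 1 library for each genotype and prominence and 6 libraries in all. The label of the control group names no strain or allele, and the differences between genotypes could not be checked in replicates.

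BMP and TGF-beta ligands are secreted dimers that bring together type I and type II serine/threonine kinase receptors. BMP receptors phosphorylate SMAD1, SMAD5 and SMAD9, and TGF-beta and activin receptors phosphorylate SMAD2 and SMAD3, which then enter the nucleus with SMAD4. Secreted inhibitors such as follistatin (*FST*) bind the ligands, and ID genes are among the transcripts that BMP signals induce directly. In the face of the chick, BMPs control outgrowth, cell survival and skeletal differentiation of the prominences.

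Each deposited value is a log2 level relative to the median of that gene over the 6 libraries, so levels were compared between libraries and not between genes. The log2 ratio in a prominence was formed by subtracting the control value from the *talpid2* value. Of the 40 genes, 33 lay within the expression limits set by the authors in all 6 libraries. The exceptions included *CHRDL1* and *BMP5* (within the limits in 5 libraries), *FST* (4), *BMP6* (3), *GDF10* (2) and *GDF7* (1). On the linear scale the values were multiples of a single base of a 50-base read, and from these the reads of 5267 genes (51.0%) were recovered, 18 of the 40 among them. Reads are given as recovered, before scaling for depth, and ratios are those of the scaled values. Depth relative to the median library ranged from 0.949 in the *talpid2* FNP library to 1.2 in the control MNP library. The frontonasal gene *ALX1* had log2 values of 1.94 and 2.16 in the FNP libraries and of -1.73 and -1.56 in the MNP libraries, and the mandibular gene *HAND2* was highest in both MNP libraries, as their labels state.

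Markers of other cell types moved with some of these groups. Of 16 listed erythroid markers 8 had values, and their median log2 level was 0.26 to 0.63 in the control and -0.74 to -0.26 in the *talpid2* libraries. Log2 ratios of *talpid2* to control were below 0 in all 3 prominences for 6 of the 8. The exceptions were *TAL1* (-0.13, 0.40 and 0.17 in the FNP, MXP and MNP) and *LMO2* (0.02, 0.07 and 0.09). Of 10 listed skeletal muscle markers 6 had values, with a median of 3.64 and 3.20 in the MNP libraries and of -0.79 to -0.05 elsewhere. Of 15 listed epithelial markers 8 had values, and the median ratio of *talpid2* to control was 0.17 in the FNP, 0.02 for the MXP and -0.11 in the MNP. The median ratios were -0.11 to -0.04 for the neural markers (8 of 11 with values) and -0.09 to 0.09 for the endothelial markers (7 of 8). In pooled tissue, fewer cells of a type and less RNA per cell cannot be told apart, and the part of these markers in the values below was not tested.

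Many of these genes varied widely over the libraries. Among the 40 genes, 19 (47.5%) had a range of at least 1 on the log2 scale over the 6 libraries, against 15.3% of all genes. The median range was 1.37 for the ligands, 1.33 for the modulators and 1.24 for the ID genes, and 0.42 for the receptors and 0.27 for the SMADs and their regulators. Over all genes the median range was 0.35. The groups differed in how many genes lay within the authors' limits in all 6 libraries. These were 5 of 9 ligands, 7 of 10 modulators and 3 of 3 ID genes, against 9 of 9 receptors and 9 of 9 SMADs and regulators. The part of low read counts in the ranges was not tested. *GDF10* varied most, with a range of 6.26, and *SMAD2*, the transducer of TGF-beta and activin signals, varied least, with a range of 0.13. The levels of *SMAD2* were 0.02 and -0.06 in the control and *talpid2* FNP, 0.07 and -0.05 for the MXP and 0.00 and -0.00 for the MNP.

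**Figure D1:**
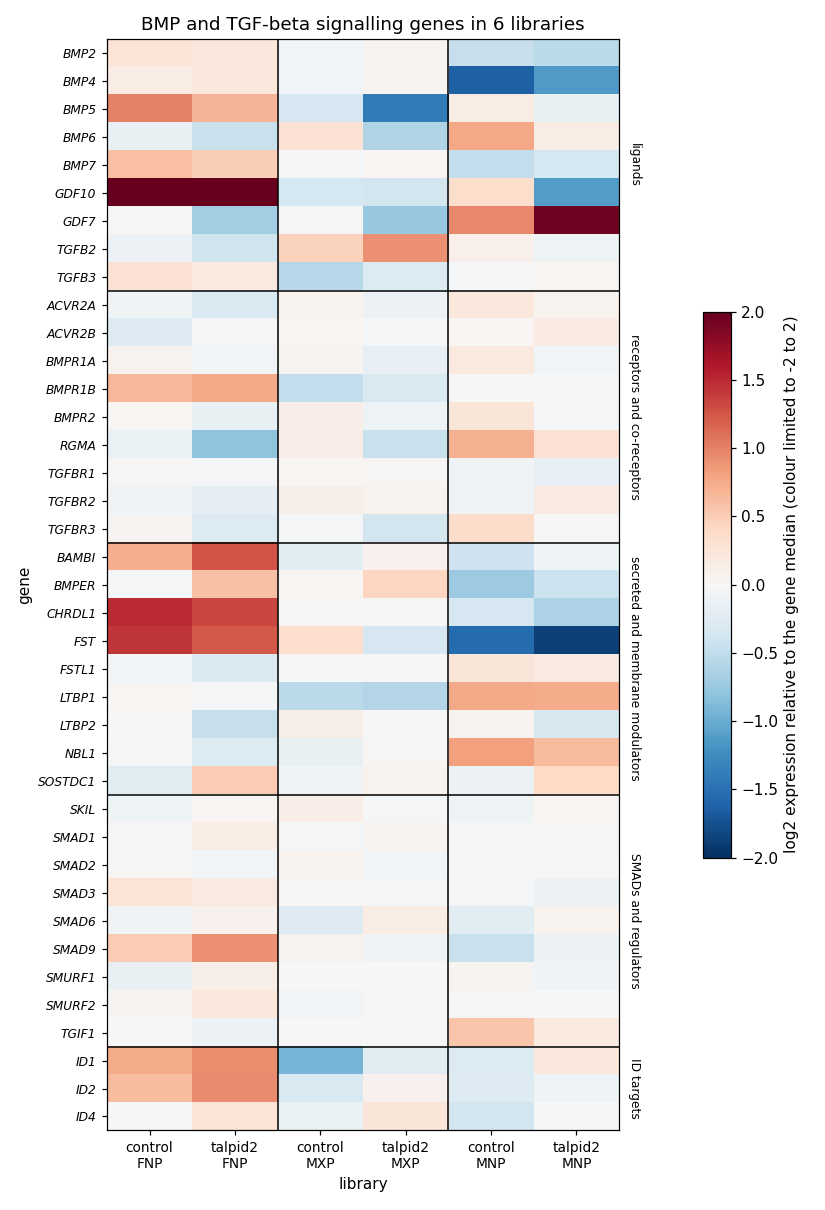
Log2 expression of 39 of the 40 genes (rows, by role) in the 6 libraries (columns, control and talpid2 for each prominence), relative to the median of each gene, with the colour limited to -2 to 2. The FNP columns are red for GDF10, CHRDL1, FST, BAMBI, ID1 and ID2, and the rows of the SMADs other than SMAD9 are nearly white.

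Differences between prominences were tested with limma over all 10337 genes, with prominence and genotype as terms. Each prominence had 2 libraries, 1 of each genotype, which are not replicates of a genotype. The 3 pairs of prominences share their libraries, so their results are not independent of each other. A gene was called at an adjusted p (Benjamini-Hochberg) of at most 0.05, and 16 of the 40 genes were called for at least 1 pair, against 13.7% of all genes.

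Between the FNP and the MXP, 10 of the 40 genes were higher in the FNP, where 4.51% of all genes were called in this direction. They were *BMP5*, *BMP7*, *GDF10*, *BMPR1B*, *BAMBI*, *CHRDL1*, *FST*, *LTBP1*, *ID1* and *ID2*. None was lower, against 3.39% of all genes. At an unadjusted p under 0.05 limma counted 3 of the 40 as lower (12.5% of all genes), among them *TGFB2* (log2 difference -0.95, adjusted p = 0.0929) and *RGMA* (-0.31, adjusted p = 0.129).

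Between the FNP and the MNP, 12 of the 40 genes were higher in the FNP, against 5.25% of all genes. Of the 10 genes above, *BMP7*, *GDF10*, *BMPR1B*, *BAMBI*, *CHRDL1*, *FST*, *ID1* and *ID2* were called here as well, with *BMP2*, *BMP4*, *BMPER* and *SMAD9* in addition. *RGMA*, *LTBP1* and *NBL1* were lower in the FNP than in the MNP, 3 genes against 4.91% of all genes. Between the MXP and the MNP, *BMP4*, *BMPER* and *FST* were higher in the MXP (1.99% of all genes) and *LTBP1* and *RGMA* were lower (2.65% of all genes).

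In every fit without 1 library, fewer of these calls were left than with all 6 libraries. Such a fit leaves 1 library in a prominence and has fewer residual degrees of freedom. The share of all genes called in these fits was not set beside the calls. A dependence of these genes on single libraries was thus not tested. The sign of the difference stayed the same for every called gene in each of these fits. The fits reuse the libraries on which the genes were called, so this is not an independent check.

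Of the ligands, *GDF10* (also known as BMP3b) was nearly restricted to the FNP. It spans 19100252 to 19107767 of chromosome 6 (minus strand), in the coordinates of the Ensembl chick genome that the authors used. Its reads were 260.3 in the control and 166.8 in the *talpid2* FNP, 5.0 and 4.98 for the MXP, and 10 and 3.0 for the MNP. The FNP libraries thus held nearly all of its reads in both genotypes. The log2 difference was 5.31 ± 0.40 (SE, limma adjusted p = 0.0130) between the FNP and the MXP and 5.33 ± 0.40 (adjusted p = 0.0102) between the FNP and the MNP. Each difference rests on at most 10 reads in the lower libraries. *GDF10* lay within the limits of the authors in 2 libraries, so these tests rest largely on libraries outside the limits and are given as a description.

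*BMP4*, a ligand with a role in beak growth, was low in the MNP. Its log2 levels were 0.15 and 0.21 in the control and *talpid2* FNP, -0.06 and 0.06 for the MXP and -1.63 and -1.14 for the MNP. Both MNP libraries lay below the other 4 libraries. The level in the FNP was 2.96-fold that in the MNP (log2 difference 1.57 ± 0.13, limma adjusted p = 0.0125) and the MXP exceeded the MNP 2.61-fold (1.38 ± 0.13, adjusted p = 0.0249). The FNP and the MXP differed by 0.18 ± 0.13 (adjusted p = 0.445).

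*BMP2* and *BMP7*, which are also BMP ligands, followed the same order. *BMP7* had levels of 0.61 and 0.50 in the control and *talpid2* FNP, -0.04 and 0.04 for the MXP and -0.49 and -0.35 for the MNP. *BMP2* had levels of 0.27 and 0.21 in the FNP, -0.05 and 0.05 for the MXP and -0.46 and -0.54 for the MNP. For both genes the 2 FNP libraries were the highest and the 2 MNP libraries the lowest. Relative to the MNP, the FNP was higher 1.96-fold for *BMP7* (limma adjusted p = 0.0134) and 1.67-fold for *BMP2* (adjusted p = 0.0174).

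*BMP5*, a ligand expressed in skeletal condensations, was lowest in the MXP. Its levels were 1.01 and 0.68 in the control and *talpid2* FNP, -0.34 and -1.41 for the MXP and 0.15 and -0.15 for the MNP. The FNP exceeded the MXP by 1.72 ± 0.23 on the log2 scale (limma adjusted p = 0.0346). *TGFB2* was highest in both MXP libraries, at 0.46 in the control and 0.91 in *talpid2*, against at most 0.10 in the other 4 libraries. None of its differences between prominences passed the limma test (adjusted p of 0.0929, 0.499 and 0.217). For *TGFB3* the FNP libraries were the highest (0.29 and 0.19), and the difference to the MXP of 0.67 ± 0.12 missed the threshold (limma adjusted p = 0.0564).

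Among the receptors only *BMPR1B*, a type I BMP receptor, and *RGMA*, a BMP co-receptor and guidance molecule, were called between prominences. *BMPR1B* had levels of 0.66 and 0.75 in the control and *talpid2* FNP, -0.49 and -0.30 in the MXP and values at the median in both MNP libraries. The order FNP, MNP, MXP was the same in both genotypes. The FNP exceeded the MXP 2.14-fold (limma adjusted p = 0.0113) and the MNP 1.63-fold (adjusted p = 0.0187), whereas the MXP and the MNP differed by -0.39 ± 0.07 (adjusted p = 0.0928). The type I receptors *BMPR1A* and *TGFBR1*, the type II receptors *BMPR2*, *ACVR2A*, *ACVR2B* and *TGFBR2*, and the co-receptor *TGFBR3* were called for no pair, and their ranges over the 6 libraries were 0.21 to 0.73.

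Of the modulators, *FST*, which encodes the activin and BMP antagonist follistatin, fell in steps from the FNP to the MXP to the MNP. It is listed on chromosome Z from 15391867 to 15398215 on the plus strand, and *SMAD2* is on the same chromosome. The sample titles name no sex of the embryos, and the part of sex in the values of *FST* and *SMAD2* was not tested. Its reads were 325.0 in the control and 232.2 in the *talpid2* FNP, 131.1 and 82.1 for the MXP, and 43.4 and 29.2 for the MNP. Each step separated the prominences in both genotypes. The FNP exceeded the MXP 2.51-fold (limma adjusted p = 0.0216), the MXP exceeded the MNP 3.26-fold (adjusted p = 0.0184) and the FNP exceeded the MNP 8.16-fold (adjusted p = 0.00472). *FST* lay within the limits of the authors in 4 libraries, so these tests rest in part on libraries outside the limits and are given as a description.

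*CHRDL1* encodes a chordin-like BMP antagonist and *BAMBI* a receptor-like membrane protein without kinase activity that inhibits signalling. *CHRDL1* had 133.2 and 98.0 reads in the control and *talpid2* FNP, 40.8 and 40.5 for the MXP, and 39.0 and 27.0 for the MNP. *BAMBI* had levels of 0.73 and 1.26 in the FNP, -0.22 and 0.09 for the MXP and -0.42 and -0.09 for the MNP. Both genes were highest in the 2 FNP libraries. FNP levels exceeded those of the MXP 2.66-fold for *CHRDL1* (limma adjusted p = 0.0103) and 2.08-fold for *BAMBI* (adjusted p = 0.0136).

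*BMPER*, an extracellular BMP regulator, had levels of -0.04 and 0.59 in the control and *talpid2* FNP, 0.04 and 0.44 for the MXP and -0.73 and -0.43 for the MNP. Its MNP levels were the lowest, with a difference of 0.86 ± 0.10 between the FNP and the MNP (limma adjusted p = 0.0229). *LTBP1*, which anchors latent TGF-beta in the matrix, was highest in the MNP (0.76 and 0.74) and lowest in the MXP (-0.55 and -0.59), with FNP levels of 0.03 and -0.03. Its log2 ratios of *talpid2* to control were -0.07 to -0.02, and the MNP exceeded the MXP 2.49-fold (limma adjusted p = 0.00729). *NBL1*, a secreted BMP antagonist of the DAN family, had levels of -0.02 and -0.28 in the control and *talpid2* FNP, -0.15 and 0.02 for the MXP and 0.82 and 0.63 for the MNP, and differed by -0.87 ± 0.13 between the FNP and the MNP (adjusted p = 0.0360).

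Among the SMADs and their regulators only *SMAD9*, a SMAD of the BMP branch, was called. Its levels were 0.51 and 0.92 in the control and *talpid2* FNP, 0.07 and -0.07 for the MXP and -0.45 and -0.12 for the MNP. The FNP libraries were the highest, and the FNP was above the MNP by 0.96 in control and 1.04 in *talpid2* (log2 scale, limma adjusted p = 0.0419). The ID genes, which encode inhibitors of basic helix-loop-helix factors, were highest in the FNP in both genotypes, and *ID1* and *ID2* were called. *ID1* had levels of 0.75 and 0.93 in the control and *talpid2* FNP, -0.93 and -0.21 for the MXP and -0.27 and 0.21 for the MNP, and *ID2* had 0.64 and 0.94, -0.30 and 0.08, and -0.25 and -0.08. The FNP exceeded the MXP 2.66-fold for *ID1* (limma adjusted p = 0.0231) and 1.87-fold for *ID2* (adjusted p = 0.0163), and it exceeded the MNP 1.82-fold (adjusted p = 0.0485) and 1.94-fold (adjusted p = 0.0117).

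**Figure D2:**
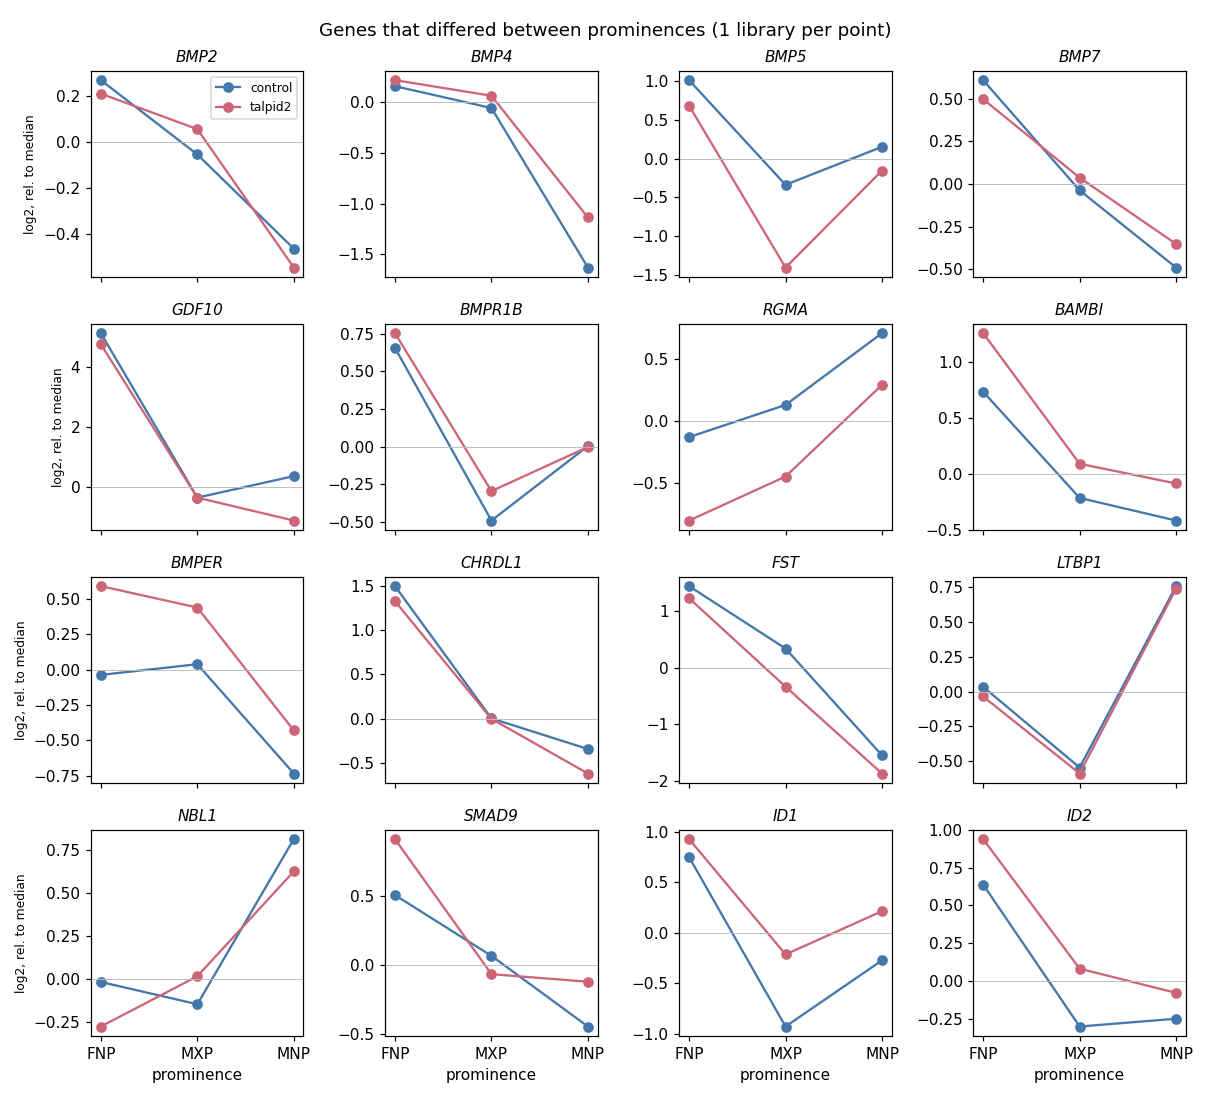
Log2 expression relative to the gene median (vertical axis, scaled for each gene) of the 16 genes called between at least 1 pair of prominences, in the FNP, MXP and MNP of control (blue) and talpid2 (red), with 1 library per point and lines that only join the points of a genotype. Both FNP points are the highest for BMP2, BMP4, BMP5, BMP7, GDF10, BMPR1B, BAMBI, CHRDL1, FST, SMAD9, ID1 and ID2, and both MNP points are the highest for RGMA, LTBP1 and NBL1.

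The genotypes were compared by the ratio of *talpid2* to control in each prominence. Across the 3 prominences, 9 of the 40 genes had ratios above 0 in all 3 (20.5% of all genes) and 18 had ratios below 0 in all 3 (21.7% of all genes). The first group comprised *BMP4*, *BMPER*, *BAMBI*, *SOSTDC1*, *SMAD6*, *SMURF2*, *ID1*, *ID2* and *ID4*. Of the receptors and co-receptors, 6 of 9 had ratios below 0 in all 3 prominences and 0 had ratios above 0 in all 3, and of the ID genes all 3 had ratios above 0 throughout. Relative to *GAPDH*, the ratio of *SMURF2* turned below 0 in at least 1 prominence and the ligands below 0 in all 3 numbered 4 in place of 3, whereas the counts of the receptors, modulators and ID genes were the same. The ratio of *GAPDH* itself was -0.01, 0.11 and 0.08 in the FNP, MXP and MNP. The median ratio of all genes was 0.00 in each. With ratios centred on this median, the ligands below 0 in all 3 numbered 2, and the counts of the other groups were the same. Ratios very close to 0 enter these counts, such as -0.00071 for *GDF10* in the MXP.

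When genotype was tested over the 6 libraries with limma, none of the 40 genes and none of the 10337 (0%) passed an adjusted p of 0.05. The smallest adjusted p among the 40 genes was 0.257, with 2 residual degrees of freedom. At an unadjusted p under 0.05, 17 of the 40 genes (42.5%) were counted, against 14.9% of all genes. Of these, 7 were higher (6.56% of all genes) and 10 were lower (8.36% of all genes) in *talpid2*.

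The ID genes had higher values in *talpid2* in each prominence. For *ID4* the levels in the FNP, MXP and MNP were -0.01, -0.14 and -0.36 for control and 0.27, 0.25 and 0.01 for *talpid2*. All 3 *talpid2* libraries lay above all 3 control libraries. The log2 ratios were 0.28, 0.38 and 0.38, with a mean of 0.35 ± 0.05 (SE, limma unadjusted p = 0.00263, adjusted p = 0.257). For *ID1* the ratios were 0.18, 0.71 and 0.49 (mean 0.46 ± 0.12, limma adjusted p = 0.292) and for *ID2* they were 0.30, 0.38 and 0.17 (mean 0.29 ± 0.06, limma adjusted p = 0.267). The interval of *ID1*, 501 bases on chromosome 20 from 9956061 to 9956561 on the plus strand, lies within that of *HM13* on the same strand, so reads of the pair could not be told apart with certainty. The ratios of *HM13* were -0.03, 0.05 and 0.01.

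The feedback inhibitors *SMAD6* and *BAMBI*, which BMP signals induce, and the regulator *BMPER* also had values above the control in each prominence. Among the 10 modulators, *BAMBI* and *BMPER* included, 3 had ratios above 0 in all 3 prominences (20.5% of all genes). Ratios below 0 in all 3 were found for 6 (21.7% of all genes), *FST* and *CHRDL1* among them. *SMAD6*, the inhibitory SMAD of the BMP branch, had FNP, MXP and MNP levels of -0.07, -0.25 and -0.22 for control and 0.09, 0.15 and 0.07 for *talpid2*. The 3 libraries of each genotype did not overlap. Its ratios were 0.16, 0.40 and 0.28 (mean 0.28 ± 0.07, limma adjusted p = 0.275), and those of *BAMBI* were 0.52, 0.31 and 0.33 (mean 0.39 ± 0.07, adjusted p = 0.257). *BMPER* had ratios of 0.63, 0.40 and 0.30 (mean 0.44 ± 0.08, limma adjusted p = 0.257), of which that in the FNP, 1.54-fold, exceeded 1.5-fold.

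Among all 40 genes, *ID4*, *SMAD6* and *SOSTDC1* had all 3 *talpid2* libraries above all 3 control libraries, where 6.71% of all genes did. *BMPR1A*, *BMPR2* and *SMAD2* had all 3 *talpid2* libraries below all 3 control libraries, where 6.73% of all genes did. Both counts, 7.5% of the 40 genes each, were near those of all genes. With *GAPDH* as the reference gene, *ID4* and *SOSTDC1* still did not overlap, whereas none of the 3 lower genes stayed apart.

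Ratios of the receptors and co-receptors were below 0 for most members. The log2 ratios of the BMP receptors were -0.13, -0.22 and -0.24 for *BMPR1A* and -0.18, -0.24 and -0.27 for *BMPR2* in the FNP, MXP and MNP. For the activin type II receptor *ACVR2A* they were -0.24, -0.19 and -0.14, and for *TGFBR3*, the co-receptor betaglycan, -0.33, -0.35 and -0.35. For each of these genes the 3 ratios lay close together. The means were -0.20 ± 0.05 for *BMPR1A*, -0.23 ± 0.05 for *BMPR2*, -0.19 ± 0.05 for *ACVR2A* and -0.34 ± 0.04 for *TGFBR3*, with limma adjusted p of 0.291, 0.267, 0.287 and 0.257. *TGFBR1* had ratios of -0.03, -0.01 and -0.09, *BMPR1B* of 0.10, 0.20 and -0.01, and neither *ACVR2B* nor *TGFBR2*, whose reads were recovered, passed the exact test in any prominence (adjusted p of 0.421 to 0.930).

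**Figure D3:**
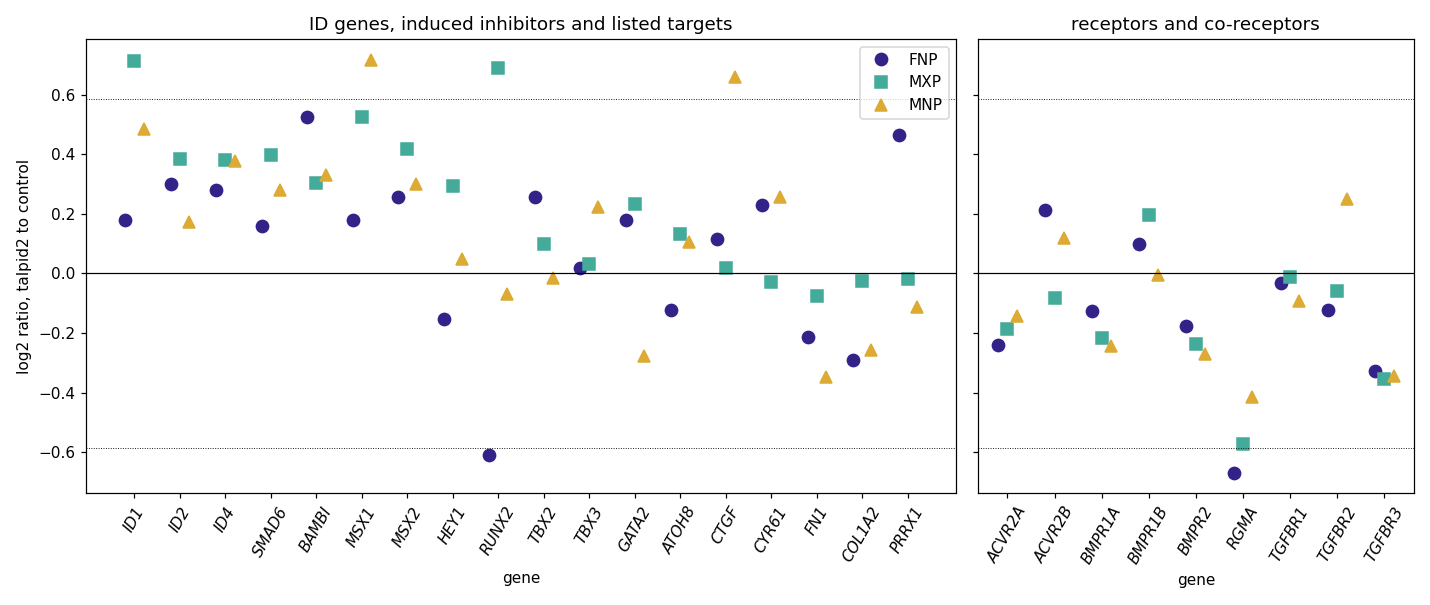
Log2 ratio of talpid2 to control in the FNP (circles), MXP (squares) and MNP (triangles), 1 library of each genotype per point. Left, the ID genes, the induced inhibitors SMAD6 and BAMBI and 13 of the 14 genes with values of a list of transcriptional targets. The points of ID1, ID2, ID4, SMAD6 and BAMBI are all above 0. Among the listed targets, those of FN1 and COL1A2 are all below 0. HEY1, RUNX2, TBX2, GATA2, ATOH8, CYR61 and PRRX1 have points on both sides. Right, the 9 receptors and co-receptors, where RGMA lies lowest. Dotted lines mark 1.5-fold.

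For the 18 genes with recovered reads, the exact Audic-Claverie test compared the 2 libraries of a prominence, with p adjusted over 5267 genes. It compares those libraries and not the genotypes. The 95% intervals of the ratios were exact Clopper-Pearson intervals, which cover counting error only and not the spread between embryos. Intervals and test both treat reads as independent. Amplified reads are not independent molecules, so the intervals may be too narrow and the p too small. *LTBP2*, *RGMA* and *SOSTDC1* passed in the FNP (3 of 18, against 9.15% of all genes with reads), *FST*, *RGMA* and *TGFB2* in the MXP (3 of 18, against 5.01%), and *LTBP2*, *RGMA*, *SOSTDC1* and *TGIF1* in the MNP (4 of 18, against 5.71%).

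Of the 18 genes only *RGMA* passed in every prominence, and the share of all genes with reads that did so was not computed. *RGMA* spans 16396405 to 16399577 of chromosome 10 (minus strand), with no overlapping gene. Its reads were 300.5 in the control and 156.5 in the *talpid2* FNP, 310.3 and 207.7 for the MXP, and 562.4 and 354.0 for the MNP. In each prominence the *talpid2* library was lower, and in each genotype the MNP library was the highest. The log2 ratio was -0.67 (95% interval -0.96 to -0.39, exact adjusted p = 7.947e-05) in the FNP, -0.57 (-0.83 to -0.32, p = 0.000762 from the same exact test) for the MXP and -0.41 (-0.61 to -0.22, exact adjusted p = 0.00148) in the MNP. These are 0.629, 0.672 and 0.750 times the control level. The MNP exceeded the FNP 1.95-fold (limma adjusted p = 0.0135) and the MXP 1.58-fold (adjusted p = 0.0441). Over the 3 prominences the mean was -0.55 ± 0.07 (limma unadjusted p = 0.00160, adjusted p = 0.257).

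*SOSTDC1*, a secreted antagonist of BMP and WNT signals, was higher in the *talpid2* FNP and MNP. Its reads were 551.8 in the control and 768.3 in the *talpid2* FNP, 536.8 and 590.4 for the MXP, and 634.6 and 760.3 for the MNP. On the log2 scale its control levels were -0.24, -0.07 and -0.11 and its *talpid2* levels 0.51, 0.07 and 0.40, so the genotypes did not overlap. The ratio was 0.75 (95% interval 0.59 to 0.91, exact adjusted p = 2.493e-18) in the FNP, or 1.68-fold, and 0.51 (0.36 to 0.67, exact adjusted p = 1.489e-08) in the MNP. In the MXP it was 0.14 (-0.03 to 0.31, exact adjusted p = 0.425), with an interval that includes 0. The ratio in the FNP exceeded that in the MXP by 0.61 (exact conditional test on the reads of the 4 libraries, adjusted p = 6.301e-05), where 2.39% of all genes with reads differed between these prominences. *SOSTDC1*, at 28409774 to 28413555 of chromosome 2 (minus strand), lies within the interval of LOC420592 on the plus strand, and whether counting used the strand is not given in the sources used here. The ratios of LOC420592 were 0.72, -0.19 and 0.08 in the FNP, MXP and MNP, and its part in the values of *SOSTDC1* was not tested.

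*TGFB2*, a ligand of the TGF-beta branch with a role in palate formation in the mouse, was higher in the *talpid2* MXP. It spans 20477096 to 20539801 of chromosome 3 (minus strand). Its reads were 308.2 in the control and 209.8 in the *talpid2* FNP, 397.5 and 543.8 for the MXP, and 378.4 and 275.2 for the MNP. The MXP was the only prominence with a ratio above 0. The ratio was 0.46 in the MXP (95% interval 0.27 to 0.65, exact adjusted p = 0.000182), -0.28 in the FNP (-0.54 to -0.02, exact adjusted p = 0.170) and -0.21 in the MNP (-0.44 to 0.02, exact adjusted p = 0.335). Its MXP ratio was above the FNP ratio by 0.74 (exact conditional test, adjusted p = 0.000727) and above the MNP ratio by 0.66 (adjusted p = 0.00131 from the same exact test), where 2.39% and 1.52% of all genes with reads differed. Between the FNP and the MNP, where 2.51% of all genes differed, the exact test called none of the 18 genes, and 2 of them, *BMP4* and *SOSTDC1*, had an unadjusted p under 0.05 (11.6% of all genes with reads).

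*FST* was lower in the *talpid2* MXP, with 131.1 and 82.1 reads and a ratio of -0.67 (95% interval -1.09 to -0.26, exact adjusted p = 0.0228). In the FNP the ratio was -0.21 (-0.46 to 0.03) and in the MNP -0.32 (-1.05 to 0.39), neither of which passed the exact test (adjusted p = 0.317 and 0.719). All 3 ratios were below 0, and the test of a difference between prominences was not passed for any pair (exact conditional test, adjusted p of 0.493 to 1).

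*LTBP2*, a relative of *LTBP1* that binds fibrillin in the matrix, had 310.9 and 188.2 reads in the control and *talpid2* FNP, 294.0 and 271.0 for the MXP, and 343.9 and 220.2 for the MNP. The *talpid2* FNP and MNP libraries held the fewest reads. Its ratio was -0.45 (95% interval -0.72 to -0.19, exact adjusted p = 0.0105) in the FNP, -0.11 (-0.36 to 0.13, exact adjusted p = 0.716) for the MXP and -0.39 (-0.64 to -0.14, exact adjusted p = 0.0321) in the MNP. *LTBP2* shares 33880 bases with *NPC2* on the opposite strand, whose ratios were 0.21, 0.26 and 0.11. *TGIF1*, a homeodomain repressor of SMAD-dependent transcription, had 391.7 and 298.6 reads in the control and *talpid2* FNP, 336.0 and 332.4 for the MXP and 600.2 and 394.3 for the MNP. The control MNP library stood highest. Its ratio in the MNP was -0.35 (-0.54 to -0.17, exact adjusted p = 0.00643), against -0.12 in the FNP and -0.01 in the MXP. A difference of the ratio between prominences was not called for *TGIF1* (exact conditional test, adjusted p of 0.297 to 0.965). The same test called none for *LTBP2*, whose smallest adjusted p was 0.498.

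**Figure D4:**
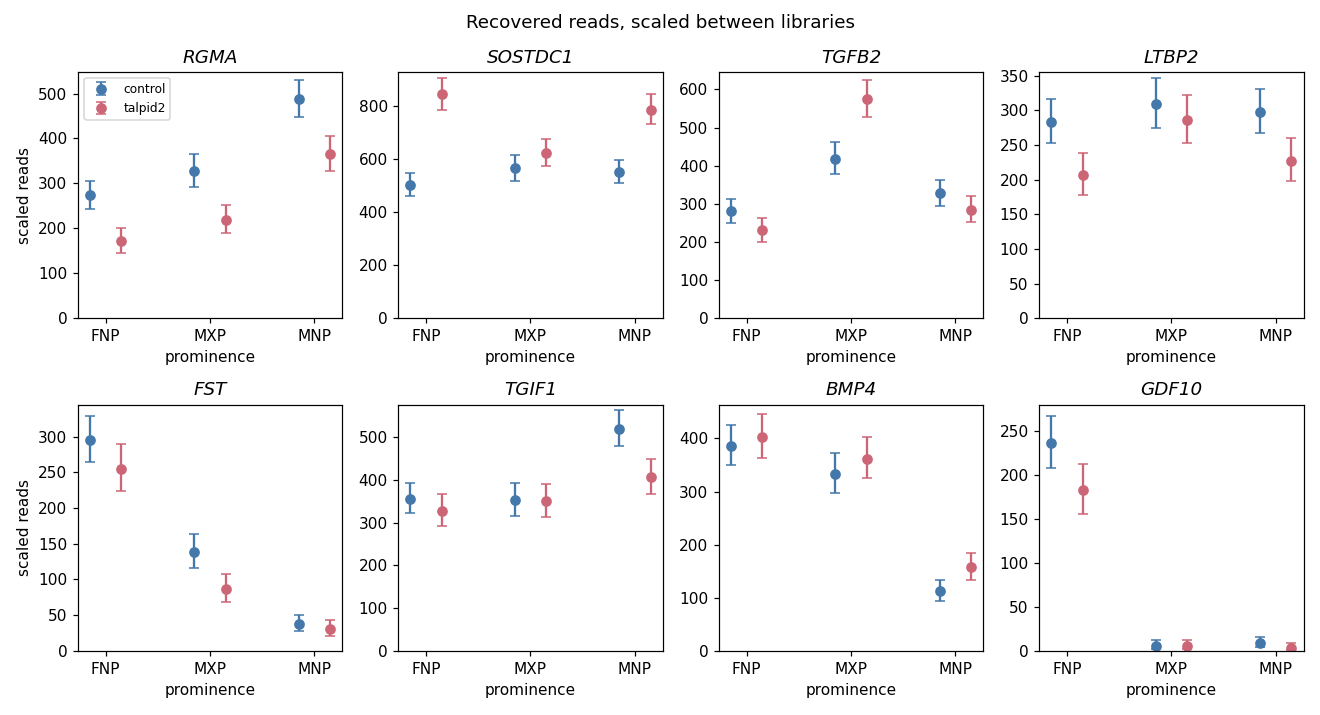
Reads scaled between libraries (vertical axis from 0) of 8 genes in the control (blue) and talpid2 (red) library of each prominence, with exact 95% Poisson intervals that cover counting error only. RGMA lies lower in talpid2 in all 3 prominences, TGFB2 lies higher only in the MXP, and GDF10 is near 0 outside the FNP.

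Past 1.5-fold, *BMPER* and *SOSTDC1* were higher in the *talpid2* FNP (2 of 40, against 2.78% of all genes), and 3 of 40 were lower (against 3.12%), *RGMA* and *GDF7* among them. In the MXP, *ID1* was higher (1 of 40, against 2.6%) and *BMP5*, *BMP6*, *FST* and *GDF7* were lower (4 of 40, against 2.52%). In the MNP, *GDF7* was higher (1 of 40, against 1.84%) and 3 of 40 were lower (against 2.69%), *BMP6* and *GDF10* among them. Among the 33 genes within the limits in all 6 libraries, *BMPER*, *SOSTDC1* and *RGMA* were past 1.5-fold in the FNP (1.23% higher and 1.28% lower among all such genes), *ID1* in the MXP (0.986% and 0.844%) and none in the MNP (0.613% and 0.789%).

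Several of these ratios rested on few reads. *GDF7*, a ligand of the roof plate of the neural tube in the mouse, had 6.0 and 3.0 reads in the control and *talpid2* FNP, 5.0 and 3.0 for the MXP and 12 and 20.0 for the MNP. None of its ratios passed the exact test (adjusted p of 0.356 to 0.817), and the 95% interval in the FNP spanned from -3.36 to 1.5. *GDF10* in the MNP had a ratio of -1.48 (95% interval -3.98 to 0.47) on 10 and 3.0 reads, and in the FNP, on 260.3 and 166.8 reads, of -0.37 (-0.66 to -0.08, exact adjusted p = 0.0852).

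*BMP5* and *BMP6*, closely related ligands, had ratios below 0 throughout. *BMP6* had 36.8 and 24.8 reads in the control and *talpid2* FNP, 42.9 and 23.0 for the MXP and 72.8 and 39.7 for the MNP. The *talpid2* library was the lower in each pair. Its ratios were -0.30 (95% interval -1.09 to 0.48), -0.89 (-1.69 to -0.13) and -0.62 (-1.22 to -0.04), with exact adjusted p of 0.737, 0.150 and 0.207. The ratios of *BMP5*, whose reads were not recovered, were -0.33, -1.07 and -0.31, and in the MXP its level was 0.477 times that of the control. *BMP4* went the other way in the MNP, with 129.5 and 152.9 reads and a ratio of 0.49 (0.15 to 0.84, exact adjusted p = 0.0661). Its ratios were 0.06 in the FNP and 0.12 in the MXP. The exact conditional test called no difference of the MNP ratio from that in the FNP (adjusted p = 0.377) or the MXP (adjusted p = 0.521).

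**Figure D5:**
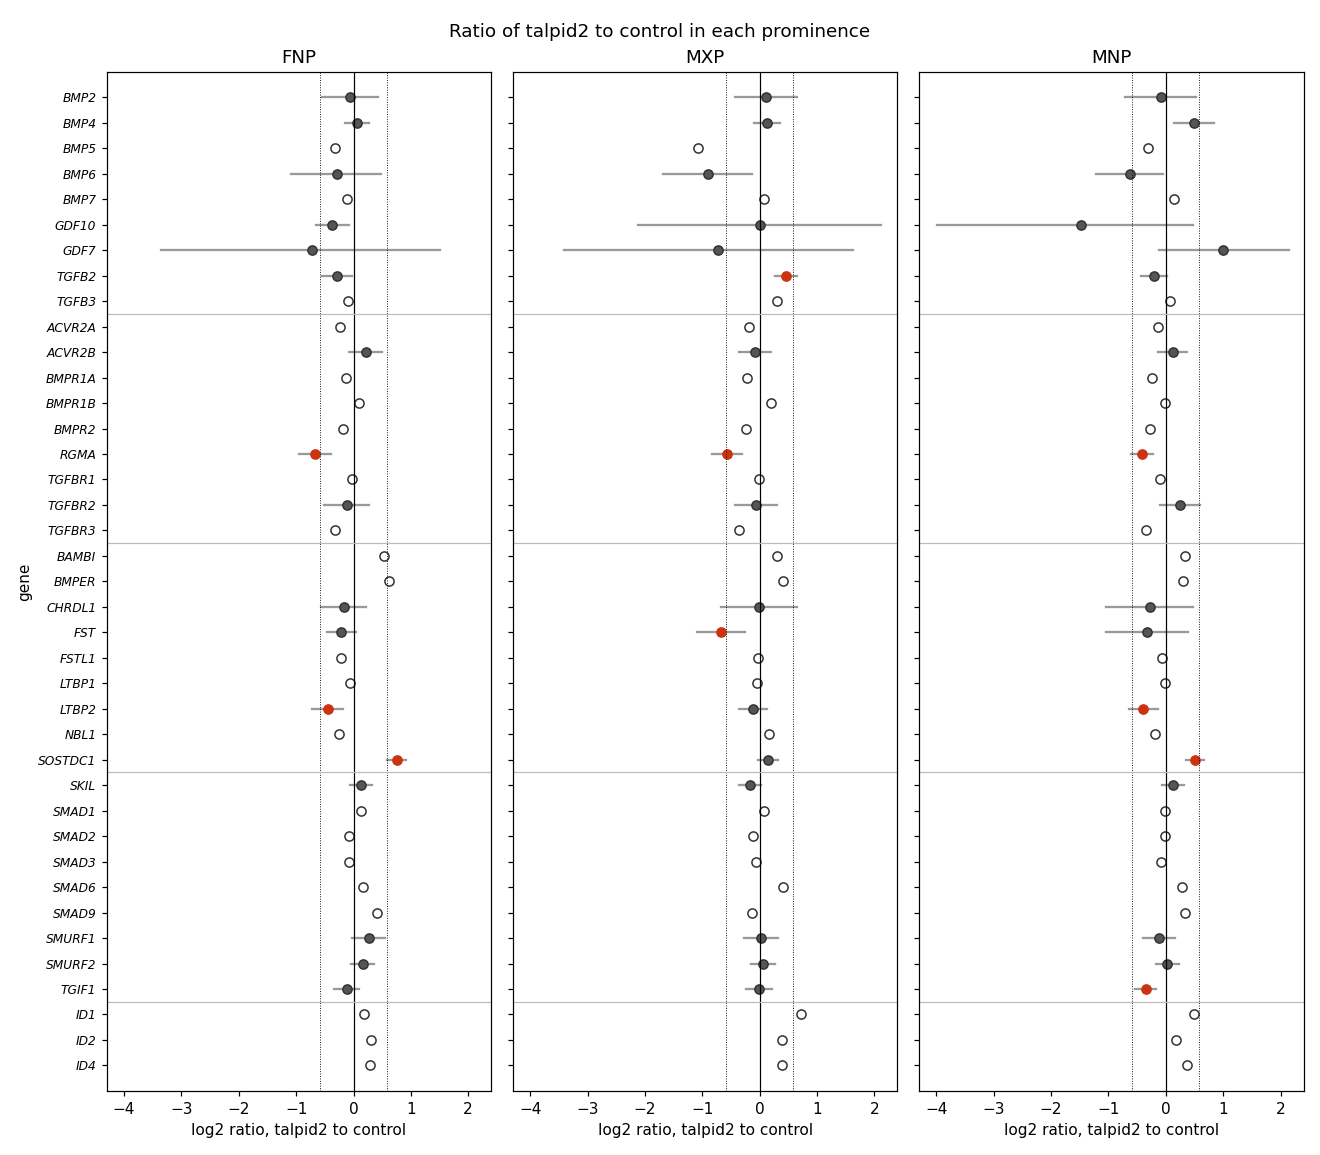
Log2 ratio of talpid2 to control (horizontal axis) of 39 of the 40 genes, by role, in each prominence, 1 library of each genotype. Filled points have recovered reads and carry the exact 95% interval (counting error only), open points have none, and red marks an adjusted p of at most 0.05 in the exact test; dotted lines mark 1.5-fold. Red points appear for RGMA in all 3 panels, and the widest intervals drawn belong to GDF7 and GDF10.

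Most SMADs and SMAD regulators had ratios near 0. *SMAD1*, *SMAD2* and *SMAD3* had ratios between -0.12 and 0.14 in all prominences, and the ubiquitin ligases *SMURF1* and *SMURF2*, which degrade SMADs and receptors, between -0.11 and 0.27. *SKIL*, a SMAD co-repressor, had ratios of 0.13, -0.18 and 0.12. None of these 3 regulators passed the exact test in any prominence (adjusted p of 0.289 to 1). *SMAD9* had ratios of 0.41, -0.13 and 0.33, on which no test of the reads could be run. Of the remaining genes, *BMP2*, *BMP7*, *TGFB3*, *CHRDL1*, *FSTL1*, *LTBP1* and *NBL1* had ratios between -0.28 and 0.30. *TGFB3* shares 404 bases with an unnamed gene on the opposite strand, and 36 of the 40 genes overlap no other listed gene.

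Other genes of the pathway were taken from a list of 67 co-receptors, modulators, regulators and targets, of which 45 had values. Of these, 16 differed between at least 1 pair of prominences by limma (13.7% of all genes). Of the 45 genes, 24 had reads for the exact test between genotypes. The adjusted test passed 3 of the 24 in the FNP (9.15% of all genes with reads), 2 in the MXP (5.01%) and 2 in the MNP (5.71%). *ENG*, an endothelial co-receptor, and *TLL1*, a protease that cleaves chordin, were higher in the *talpid2* FNP and *ZEB2*, a SMAD-binding repressor, was lower. In the MXP *ENG* and *MSX1* were higher, and in the MNP *MSX1* was higher and *ZEB2* lower.

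*MSX1*, a homeobox target of BMP signals in facial mesenchyme, had ratios of 0.18 in the FNP (95% interval 0.01 to 0.35, exact adjusted p = 0.214), 0.53 in the MXP (0.37 to 0.68, exact adjusted p = 5.814e-09) and 0.72 in the MNP (0.56 to 0.88, exact adjusted p = 1.453e-16). Its levels were -0.20, 0.02 and -0.27 in the control and -0.02, 0.55 and 0.45 in *talpid2*. Its relative *MSX2* had ratios of 0.26, 0.42 and 0.30, with no reads recovered. *ZEB2* had ratios of -0.33 (-0.51 to -0.15, exact adjusted p = 0.00580), -0.29 (-0.59 to 0.00, exact adjusted p = 0.294) and -0.42 (-0.63 to -0.22, exact adjusted p = 0.00185). Over the 14 targets with values the median ratio was 0.15 in the FNP, 0.12 for the MXP and 0.08 in the MNP. Of these targets, 5 had ratios above 0 in all 3 prominences (20.5% of all genes) and 2 below 0 in all 3 (21.7%). Among the 14 targets, *CTGF* and *MSX1* in the MNP (0.66 and 0.72) were past 1.5-fold and within the limits in all 6 libraries.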

How the data were processed

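RNA of pooled prominences was sequenced by the authors and analysed in GeneSpring against an Ensembl chick genome; the aligner, the library scaling and the assembly are not given in the sources used here. The authors deposited log2 values, scaled by library, floored at 1 and centred on the median of each gene. With each gene the authors deposited the number of libraries within their expression limits, whose scale is not stated.

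Ratios were differences of the log2 values, with no pseudocount. Reads were recovered as the smallest whole numbers of bases of a 50-base read that gave all 6 values, up to 1000 reads; with library steps changed by 1% to 3%, 0.735% of genes had a solution. Recovered reads summed to 1316819 to 1662460 per library. Read recovery, limma and the exact tests were also run on simulated data. These data followed the assumptions of each method, such as independent reads, so whether the assumptions hold here was not tested. limma 3.58.1 (R 4.3.3) was fitted to all 10337 genes with prominence and genotype as terms. The Audic-Claverie test was exact and 2-sided, and the difference between prominences was tested with an exact conditional test, adjusted over 15801 tests and chosen after seeing the data. Python 3.11.15, numpy 2.4.6, scipy 1.17.1 and matplotlib 3.10.9 were used.

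The 40 genes were those whose symbol names a BMP, GDF, TGFB or INHB ligand, a receptor, SMAD, SMURF, SKI or TGIF gene, an ID gene or one of the listed modulators. Symbols came from the RefSeq table of GRCg7b through the Entrez identifier for 29 genes and from the deposited file for 11. Values in all libraries were given for genes past 1.5-fold, called by limma, past the exact test, or with the largest or smallest range. Genes of the pathway list were named when called, past the exact test, or past 1.5-fold within the limits in all 6 libraries. One gene of the 40 and one of the pathway list that met these rules are not reported here, and both remain in the counts and medians. The genes, lists and tests were chosen with earlier results of these data known. Alternatives were a 2-fold threshold, genes within the limits in all libraries, centring on the median ratio or on *GAPDH*, a pseudocount of 10 scaled reads, a minimum of 10 reads, Fisher's exact test, unadjusted p, robust estimation of the limma prior, single-term models, and leaving out each library or prominence.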

Additional observations from a re-analysis of the deposited data

Results flagged for a closer look

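The *talpid2* to control ratio of *TGFB2* differed between prominences in the exact conditional test on the reads of 4 libraries. The ratio in the FNP minus that in the MXP was -0.74 on the log2 scale (exact adjusted p = 0.000727), and the ratio in the MXP minus that in the MNP was 0.66 (exact adjusted p = 0.00131). The ratio of *SOSTDC1* in the FNP minus that in the MXP was 0.61 (exact adjusted p = 6.301e-05). The test compares single libraries and does not cover the spread between embryos.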

How the results depend on the processing

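The labels carry no replicate numbers, and the fit of genotype with prominence as a term sets the 2 libraries of each prominence against each other. With a 2-fold threshold in place of 1.5-fold, the numbers higher and lower among the 40 genes were 0 and 1 for the FNP (0.813% and 1.04% of all genes), 0 and 1 for the MXP (0.9% and 0.822%), and 0 and 2 in the MNP (0.6% and 0.938%). Restricted to genes within the limits in all 6 libraries, 1 was lower in the FNP, 0 for the MXP and 0 in the MNP, and 0 were higher in the MNP. At an unadjusted p of at most 0.05 the Audic-Claverie exact test passed 5 of 18 genes in the FNP (21.1% of all genes with reads), 4 for the MXP (16.5%) and 7 in the MNP (17.9%), and the exact conditional test passed 5 for any pair of prominences (23.5%), against 2 after adjustment (4.65%). Without 1 library the calls by limma were for no pair of prominences more than with all libraries. With all libraries they were 10 between the FNP and the MXP, 15 between the FNP and the MNP and 5 between the MXP and the MNP. Each fit without 1 library leaves 1 library in a prominence, and the share of all genes called in it was not set beside the calls. Relative to *GAPDH*, 1 of the SMADs and regulators had ratios above 0 in all 3 prominences, against 2, and 1 gene, *SMAD3*, had all 3 *talpid2* libraries below all 3 control libraries, against 3 others. The alternatives for role groups, for libraries that do not overlap and for the conditional test were chosen after seeing the data. No value changed sign among the called results, which were called on the same libraries. Of the single log2 ratios under other scalings or a pseudocount, 271 stayed within the counting interval or the residual spread and 23, all with *GAPDH* as the reference, did not. Of the limma differences of called genes, 9 did not keep their side of the threshold with prominence as the only term and 1 with robust estimation of the prior. More did not in the fits without 1 library. Depth limited *GDF7* and, outside the FNP, *GDF10*, each with at most 20.0 reads there.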

Other observations

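Genes close to the family whose file symbols fall outside the selection had small ratios. *SMAD5*, a SMAD of the BMP branch, had log2 ratios of *talpid2* to control of -0.07, -0.01 and -0.12 in the FNP, MXP and MNP. *ACVR1*, a type I receptor, had -0.04, -0.06 and -0.21, and *TGIF2*, a relative of *TGIF1*, had -0.29, -0.03 and -0.18. *FSTL4*, a relative of follistatin, had -0.04 (95% interval -0.34 to 0.26), 0.09 (-0.18 to 0.36) and -0.11 (-0.41 to 0.18), and its level was 0.30 and 0.39 in the control and *talpid2* MXP against -0.10 to 0.01 elsewhere.

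In the pathway list, genes of SMAD regulation and of BMP response also differed between prominences by limma. *WWP2*, a ubiquitin ligase, was higher in the FNP than in the MXP by 2.05 on the log2 scale (limma adjusted p = 0.00618), and *MSX2* was higher by 1.33 (adjusted p = 0.00680). *TBX3*, a T-box factor that BMP signals induce, was higher in the MXP than in the MNP by 1.81 (limma adjusted p = 0.00729) and *TBX2* by 1.21 (adjusted p = 0.0158). *TOB1*, an inhibitor of SMAD-dependent transcription, was higher in the FNP than in the MNP by 1.16 (limma adjusted p = 0.0105). *PRRX1*, a mesenchymal homeobox gene, was lower in the FNP than in the MXP by 1.77 (log2 difference -1.77, limma adjusted p = 0.0192).

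The other genes of the pathway list called between prominences were as follows. *GATA2*, a zinc-finger factor that BMP signals induce, was higher in the FNP than in the MNP by 3.93 (limma adjusted p = 0.00347) and in the MXP than in the MNP by 3.16 (adjusted p = 0.00823), and it lay within the limits in 4 libraries. *ZEB2* was higher in the FNP than in the MXP by 1.29 (limma adjusted p = 0.00642). *FN1*, which encodes fibronectin, was higher in the FNP than in the MXP by 0.88 (adjusted p = 0.0211), *CYR61*, a matricellular protein, by 0.66 (adjusted p = 0.0416) and *THBS1*, an activator of latent TGF-beta, by 0.59 (adjusted p = 0.0284). *HTRA3*, a secreted serine protease, was higher in the FNP than in the MNP by 1.86 (limma adjusted p = 0.0230). *TLL2*, a relative of *TLL1*, differed by -1.51 between the FNP and the MNP (adjusted p = 0.0186) and *VWC2*, a secreted BMP regulator, by -1.19 (adjusted p = 0.0382). *LRRC32*, which holds latent TGF-beta at the cell surface, was higher in the MXP than in the MNP by 1.09 (limma adjusted p = 0.0241), and *CRIM1*, a membrane protein that binds BMPs, differed by -0.55 between the same prominences (adjusted p = 0.0499). *TLL2*, *VWC2*, *HTRA3* and *LRRC32* lay within the limits in 3, 2, 4 and 2 libraries. As for *GATA2*, their tests rest in part on libraries outside the limits and are given as a description.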
